A study of Mus musculus with 6 samples.

Results

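Brown fat makes heat when noradrenaline from sympathetic nerves binds adrenergic receptors on brown adipocytes. Receptors that couple to the stimulatory G protein, whose alpha subunit is the product of Gnas, raise cyclic AMP (cAMP) by switching on adenylyl cyclase, and receptors that couple to the inhibitory G proteins, with alpha subunits such as those of Gnai1 and Gnai2, lower it. The cAMP formed activates protein kinase A, which releases fatty acids from the lipid droplet and phosphorylates transcription factors such as CREB.

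The genes described here are 9 members of this input step, of 54385 rows in the table. They were chosen by name for their known action on adenylyl cyclase, with earlier results of these data known. The 5 stimulatory members are Adrb1 and Adrb3 (beta adrenergic receptors), Adora2a (an adenosine receptor), Gpr3 (a receptor that signals without a known ligand) and Gnas. The 4 inhibitory members are Adra2a (an alpha adrenergic receptor), Adora1 (another adenosine receptor), Gnai1 and Gnai2. All are protein-coding, and 8 of the 9 passed the filter on low counts. Adra2a did not.

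RNA was measured by paired-end sequencing of total RNA from brown fat of C57BL/6N mice, taken between the shoulder blades per the sample labels. There were 3 libraries of ADCY3∆AT mice, whose label reads Adcy3-AT KO (Adcy3 encodes an adenylyl cyclase), and 3 libraries of WT (wt/wt) mice. Mice of both genotypes were 20 weeks old, had been switched at 8 weeks from chow to 12 weeks of high-fat feeding, and were held at 4 °C for 24 h, so every library is from a cold-exposed mouse on a high-fat diet. The design text instead names an inguinal depot. The sources used here do not say how the allele was made or in which cells it acts. Replicates are numbered in the labels, with no statement that they are different mice, and the p-values refer to sample spread that may be technical.

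Library totals ranged from 44826777 to 54933588 estimated counts. Adcy3, the targeted gene, had 348.5, 341.9 and 505.6 TMM-normalised CPM (counts scaled to library size) in ADCY3∆AT, against 676.9, 727.8 and 651.9 CPM in WT, lower in all 3 ADCY3∆AT libraries, with replicate 3 nearest to WT. The defining brown adipocyte marker Ucp1 had 10092 ± 138 CPM in ADCY3∆AT and 10486 ± 160 CPM in WT (SD, n = 3 each), so the marker of the labelled tissue was abundant in both. The 12 skeletal muscle markers summed to 7.98, 241.3 and 500.8 CPM in ADCY3∆AT, against 2058, 1297 and 3882 CPM in WT, and the 8 endothelial markers to 1169, 1232 and 1255 CPM in ADCY3∆AT, against 1165, 1092 and 1116 CPM in WT. Of the 12 brown adipocyte markers 4 lay lower and 1 higher in ADCY3∆AT without overlap, against 8.83% and 7.68% of all genes tested. DESeq2 called 1 of the 12 lower, against 0.737% of all genes it tested. The 8 Schwann cell markers summed to 56.1, 62.2 and 67.6 CPM in ADCY3∆AT, against 78.9, 77.2 and 73.5 CPM in WT. All 7 tested were negative and 4 lay lower without overlap, against 8.83% of all genes tested. The part of these markers in the members' values was not tested. Of 8 markers of sympathetic neurons, 7 did not pass the filter, and Dbh, the enzyme that makes noradrenaline, was listed at 0 in all 6 libraries. In bulk tissue, fewer cells of a type and less RNA per cell cannot be told apart.

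Promoters of the members were read from RefSeq (GRCm38.p6), as windows of 250 bases before to 50 after a transcript start. Adrb3, Adora2a and Gnai2 had no window and could not be searched, and the other 6 of the 9 members matched. They have 10 windows, of which 6 held a half-site of the cAMP response element: 1 each of Adrb1, Gpr3 and Adra2a and 3 of the 4 of Gnas. The Gnas windows that start at 174327499 and 174327518 overlap and hold the same half-site, which is counted in each. Neither window of Adora1, nor that of Gnai1, held one. The windows of 3 receptors that held one are shown, because Adrb1 is the receptor whose ADCY3∆AT libraries all lay below WT, and Gpr3 and Adra2a are the members with the least RNA. Capitals mark the half-site, TGACG on either strand, the sequence CREB is known to bind.
Adrb1, chr19:56721867-56722166, plus strand: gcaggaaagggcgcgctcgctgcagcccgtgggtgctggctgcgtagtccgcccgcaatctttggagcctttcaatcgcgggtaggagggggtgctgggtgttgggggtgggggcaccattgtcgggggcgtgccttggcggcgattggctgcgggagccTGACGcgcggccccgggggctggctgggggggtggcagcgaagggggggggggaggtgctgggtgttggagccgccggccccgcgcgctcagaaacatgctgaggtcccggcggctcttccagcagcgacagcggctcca
Gpr3, chr4:133212487-133212786, minus strand: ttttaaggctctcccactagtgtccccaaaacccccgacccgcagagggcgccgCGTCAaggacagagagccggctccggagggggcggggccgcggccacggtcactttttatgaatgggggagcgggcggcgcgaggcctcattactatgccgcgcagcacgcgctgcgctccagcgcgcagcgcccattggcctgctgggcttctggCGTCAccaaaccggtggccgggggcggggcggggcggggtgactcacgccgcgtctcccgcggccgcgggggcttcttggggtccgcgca
Adra2a, chr19:54045009-54045308, plus strand: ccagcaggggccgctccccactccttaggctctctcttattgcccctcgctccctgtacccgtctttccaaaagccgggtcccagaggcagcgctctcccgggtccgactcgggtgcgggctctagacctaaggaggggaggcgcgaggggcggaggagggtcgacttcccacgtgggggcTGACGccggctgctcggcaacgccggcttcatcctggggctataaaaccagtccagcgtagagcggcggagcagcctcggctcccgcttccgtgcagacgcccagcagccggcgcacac
Counted from the start, with the base before it as -1, the half-site began at -90 in Adrb1, at -196 and -40 in Gpr3 and at -69 in Adra2a. Gpr3 also held 1 match to the AP-1 motif TGACTCA, beginning at -1 and overlapping no half-site. No window of a member held the full palindrome TGACGTCA, which contains the half-site. Over both strands the half-site occurs in 20.8% of all 32851 promoter windows, TGACTCA in 5.2% and TGACGTCA in 1.79%. These matches are letters in a window, and no binding was measured.

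Adrb3 was by far the most abundant receptor of the group. Levels between genes are compared as CPM per kilobase of annotated exon. On that scale Adrb3 had 67.9 ± 0.671 in ADCY3∆AT and 60.3 ± 4.99 in WT (SD, n = 3 each). Adora1 followed with 10.1 ± 1.73 in ADCY3∆AT and 9.08 ± 0.378 in WT. Adrb1 had 6.48 ± 1.02 in ADCY3∆AT and 8.07 ± 0.795 in WT. Adora2a had 5.56 ± 0.283 in ADCY3∆AT and 5.09 ± 0.289 in WT. Adrb3 therefore held 75.3 ± 0.67% of the summed level of the 6 receptors in ADCY3∆AT and 72.8 ± 1.86% in WT. Its lowest library (55.5) lay above the highest of Adora1 (11.6), whereas Adora1 (8.24 to 11.6), Adrb1 (5.43 to 8.98) and Adora2a (4.86 to 5.74) overlapped their neighbours in the order.

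Set among 86 receptors acting on adenylyl cyclase or of the alpha-1 adrenergic class, Adrb3 ranked 1, Adora1 ranked 4, Adrb1 ranked 6 and Adora2a ranked 9. S1pr1, a sphingosine phosphate receptor of endothelium, ranked 2 with 26.6 to 36.3 CPM per kilobase, and Adra1a, the calcium-linked alpha-1A adrenergic receptor, ranked 3 with 9.23 to 12.4. Ptger3, an inhibitory prostaglandin receptor of adipocytes, ranked 7 with 5.31 to 9.34. Both scarce members lay far below: Gpr3 ranked 38 and Adra2a ranked 53, each at 0 in 1 ADCY3∆AT library.

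**Figure D1:**
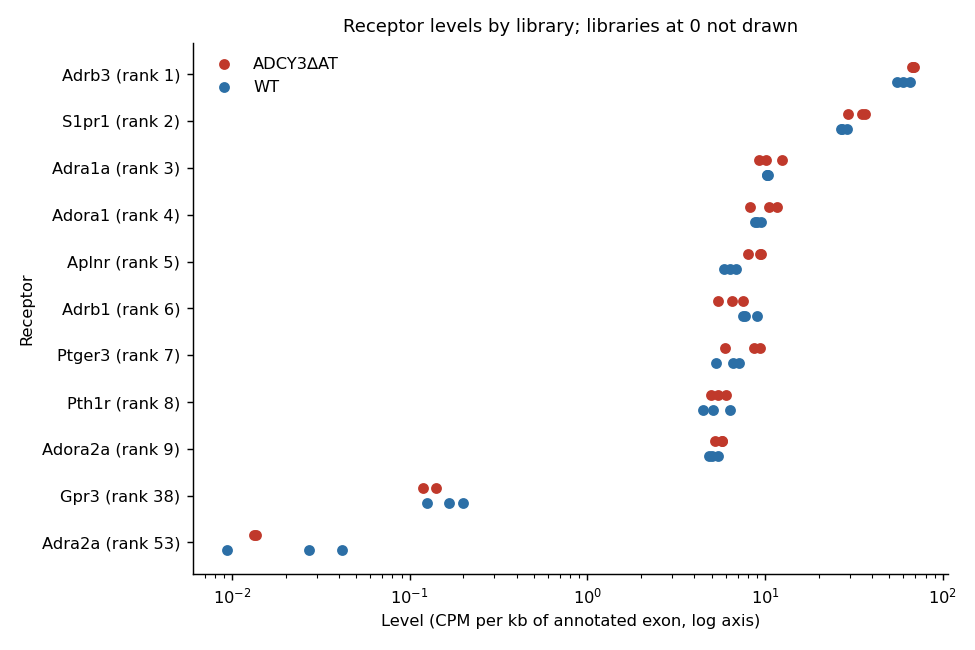
Levels of the 9 most abundant receptors and of Gpr3 and Adra2a in CPM per kilobase of annotated exon on a log axis, with 1 point per library (ADCY3∆AT above WT) and libraries at 0 not drawn. Adrb3 stands alone at 55.5 to 68.7, and Adora1, Adrb1 and Adora2a overlap with their neighbours between 4.86 and 11.6.

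The alpha subunits were led by Gnas, with 199 ± 23.1 CPM per kilobase in ADCY3∆AT and 185 ± 8.53 in WT (SD, n = 3 each). Gnai2 had 22.1 ± 0.395 in ADCY3∆AT and 19.4 ± 0.748 in WT, and Gnai1 had 13.5 ± 1.12 in ADCY3∆AT and 14.1 ± 1.18 in WT. Gnai3, the remaining inhibitory alpha subunit of this subfamily, had 12.9 ± 0.48 in ADCY3∆AT and 12.8 ± 0.21 in WT. The ranges over all 6 libraries of Gnas (175.4 to 223.8), Gnai2 (18.6 to 22.4) and Gnai1 (12.4 to 15.2) did not overlap. The size of the lead of Gnas depends on the length used: its 24 annotated transcripts cover 11186 exon bases, but the longest has 3947, and dividing by the longest transcript instead gave a mean over the 6 libraries of 544.0 for Gnas, 35.4 for Gnai2 and 13.8 for Gnai1.

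Between the genotypes, none of the 8 members tested passed edgeR's quasi-likelihood test with Benjamini-Hochberg adjustment over all 18114 genes. The adjusted p ran from 0.271 to 0.814. DESeq2 and limma voom also called 0 members. In edgeR 0.00552% of all genes tested were called, which is 1 gene, so an empty count here is near the background. The targeted gene Adcy3 was itself not called by edgeR, with a log2 fold change of -0.78 ± 0.14 (SE, edgeR adjusted p = 0.158). DESeq2 did call Adcy3 (DESeq2 adjusted p = 4.11e-07). An empty count in edgeR is therefore no sign that the members were unchanged. Before adjustment 3 of the 8 had p under 0.05, Adrb3 and Gnai2 higher and Adrb1 lower in ADCY3∆AT. Of all genes tested 11.0% did, 5.23% higher and 5.78% lower. The groups did not overlap for the same 3 members, against 16.5% of all genes tested, 7.68% higher and 8.83% lower. Each of the 3 had p = 0.1 in an exact permutation test (two-sided), and 3 against 3 libraries cannot give a smaller value. The median log2 fold change of the 8 was 0.12, against 0.00 for all genes tested.

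The beta adrenergic receptors lay on opposite sides of WT. Adrb3 (ENSMUSG00000031489, chr8:27225776-27250616, minus strand, coordinates in GRCm38), the receptor through which noradrenaline mainly drives mouse brown adipocytes, had 229.1, 227.3 and 231.8 CPM in ADCY3∆AT, against 220.9, 202.7 and 187.3 CPM in WT. All 3 ADCY3∆AT libraries were above all 3 WT libraries, and the WT libraries were the more spread out. The log2 fold change was 0.17 ± 0.07 (SE, edgeR adjusted p = 0.40), about 1.13-fold in means, and it was 0.11 when WT replicate 3 was left out. Adrb1 (ENSMUSG00000035283, chr19:56722199-56733113, plus strand), the beta receptor known for its role in brown precursor cells of mice, had 18.4, 22.1 and 25.3 CPM in ADCY3∆AT, against 25.5, 30.4 and 26.1 CPM in WT. Here every ADCY3∆AT library was below every WT library, though replicate 3 of ADCY3∆AT came within a fraction of a CPM of the lowest WT library. The log2 fold change was -0.32 ± 0.12 (SE, edgeR adjusted p = 0.388). It was -0.21 when ADCY3∆AT replicate 1 was left out and -0.43 (edgeR adjusted p = 0.132) when replicate 3 of that genotype was.

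The ratio of Adrb3 to Adrb1 within a library, both per kilobase, was 12.5, 10.3 and 9.18 in ADCY3∆AT, against 8.69, 6.68 and 7.20 in WT. The mean was 10.7 ± 1.68 in ADCY3∆AT and 7.53 ± 1.04 in WT (SD, n = 3 each), with no overlap. This ratio was formed after the values had been seen and was not tested. Part of the Adrb3 row may share reads with Gm45470, an antisense gene that covers 24.9% of the Adrb3 exon bases, and whether counting used strand is not given. Gm45470 had 7.99 ± 0.85 CPM in ADCY3∆AT and 7.88 ± 1.38 CPM in WT (SD, n = 3 each).

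**Figure D2:**
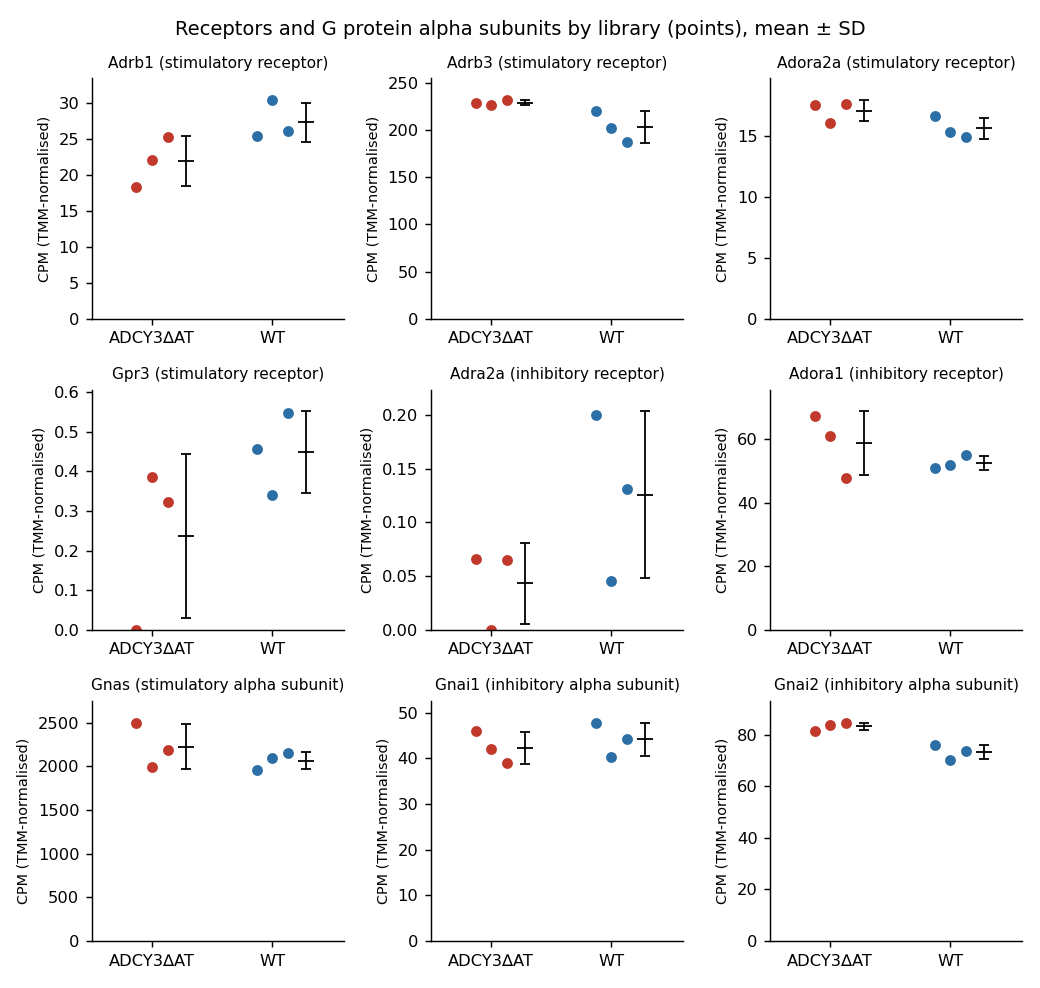
TMM-normalised CPM of the 9 members, with 1 point per library, ADCY3∆AT left of WT, bars showing mean ± SD (n = 3 each) and every vertical axis starting at 0. The groups separate for Adrb3 and Gnai2, higher in ADCY3∆AT, and for Adrb1, lower, and they overlap for the other tested members.

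Adenosine, formed from ATP outside the cell, acts on both sides of the enzyme. Adora2a, which raises cAMP, had 17.5, 16.03 and 17.6 CPM in ADCY3∆AT, against 16.6, 15.3 and 14.9 CPM in WT. ADCY3∆AT replicate 2 lay within the WT range, so the groups overlapped, and the log2 fold change was 0.13 ± 0.07 (SE, edgeR adjusted p = 0.565). Adora1, which lowers cAMP and is known in rodents to restrain lipolysis in fat cells, had 67.2, 61.0 and 47.6 CPM in ADCY3∆AT, against 50.8, 51.9 and 55.0 CPM in WT. Replicates 1 and 2 of ADCY3∆AT lay above all WT libraries and replicate 3 below them. The log2 fold change of Adora1 was 0.16 ± 0.11 (SE, edgeR adjusted p = 0.651). It was 0.29 when ADCY3∆AT replicate 3 was left out and 0.05 when replicate 1 of that genotype was. Mybph, which overlaps 20.1% of the Adora1 exon bases on the other strand, had no more than 0.31 CPM in any library.

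After 24 h of cold Gpr3 was scarce and Adra2a was near the limit of detection. Gpr3, a receptor that keeps the stimulatory G protein active without a ligand and that is known to be induced by cold in mouse brown fat, had 0, 19 and 15 estimated counts in ADCY3∆AT, against 25, 15 and 25 in WT. ADCY3∆AT replicate 2 and replicate 3 lay near the lowest WT library, and replicate 1 was listed at 0, below the limit of 3 counts that a count of 0 allows. The fitted log2 fold change was -0.90 ± 0.74 (SE, edgeR adjusted p = 0.700), and it was -0.34 without ADCY3∆AT replicate 1 and -1.45 without replicate 2 of that genotype, so its size rests on single libraries. With limma voom it was -1.97. Cd164l2, on the other strand, covers 7.46% of the Gpr3 exon bases and had 0.91 ± 0.09 CPM in ADCY3∆AT and 0.75 ± 0.26 CPM in WT (SD, n = 3 each).

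Adra2a, through which noradrenaline itself can lower cAMP, had 3, 0 and 3 estimated counts in ADCY3∆AT, against 11, 2 and 6 in WT. Summed, these were 6 counts in ADCY3∆AT and 19 in WT, a ratio of 0.33 with an exact 95% interval of 0.11 to 0.85 for counting error only, which leaves out the spread between libraries. A count of 0 allows up to 3 counts, or 0.0546 to 0.0669 CPM in these libraries, and no ADCY3∆AT library exceeded 3 counts. The spread between libraries was not tested, and ADCY3∆AT replicates 1 and 3 lay within the WT range.

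Gnas, whose row joins the products of an imprinted locus with several promoters, had 2503, 1991 and 2185 CPM in ADCY3∆AT, against 1962, 2091 and 2149 CPM in WT. ADCY3∆AT replicate 1 stood clearly above the WT libraries, replicate 3 just above them and replicate 2 among them, and the log2 fold change was 0.11 ± 0.08 (SE, edgeR adjusted p = 0.684). It was 0.01 when ADCY3∆AT replicate 1 was left out and 0.18 when replicate 2 of that genotype was. Of the 31-base words in its transcripts 19.9% also occur in transcripts of other annotated genes, 11.6% in those of the opposite-strand gene Gm20721, which had 4.38 ± 4.50 CPM in ADCY3∆AT and 4.485 ± 1.97 CPM in WT (SD, n = 3 each).

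The inhibitory alpha subunits carry the signal of Adora1 and Adra2a to the cyclase. Gnai2 (ENSMUSG00000032562, chr9:107614125-107635367, minus strand) had 81.7, 83.8 and 84.6 CPM in ADCY3∆AT, against 76.0, 70.4 and 73.9 CPM in WT. It had the lowest p of the members, with all ADCY3∆AT libraries above all WT libraries and a log2 fold change of 0.18 ± 0.05 (SE, edgeR adjusted p = 0.271). Gnai1 had 45.9, 42.0 and 38.9 CPM in ADCY3∆AT, against 47.7, 40.3 and 44.3 CPM in WT. Its groups overlapped widely, and the log2 fold change was -0.06 ± 0.08 (SE, edgeR adjusted p = 0.814), and between -0.13 and -0.0013 with a library left out. The genes are related in sequence, but 0.0644% of the 31-base words of Gnai1 transcripts occur in another gene, all of them in Gnai2. Whether the fold changes of Gnai2 and Gnai1 differ was not tested.

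The stimulatory members were also set against the inhibitory ones within each library. The summed level of Adrb1, Adrb3, Adora2a and Gpr3 over that of Adra2a and Adora1 was 6.79, 7.51 and 9.94 in ADCY3∆AT, against 8.91, 8.26 and 7.16 in WT. The ADCY3∆AT libraries spanned the WT range on both sides, and the mean was 8.08 ± 1.65 in ADCY3∆AT and 8.11 ± 0.88 in WT (SD, n = 3 each). Gnas over Gnai1 plus Gnai2 was 6.18, 5.005 and 5.62 in ADCY3∆AT, against 4.96, 5.94 and 5.71 in WT, with means of 5.60 ± 0.59 in ADCY3∆AT and 5.53 ± 0.51 in WT. As log2 values the differences between genotypes, -0.02 for the receptors and 0.02 for the alpha subunits, were smaller than the SD within either genotype. These ratios carry no test, being sums over chosen genes.

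**Figure D3:**
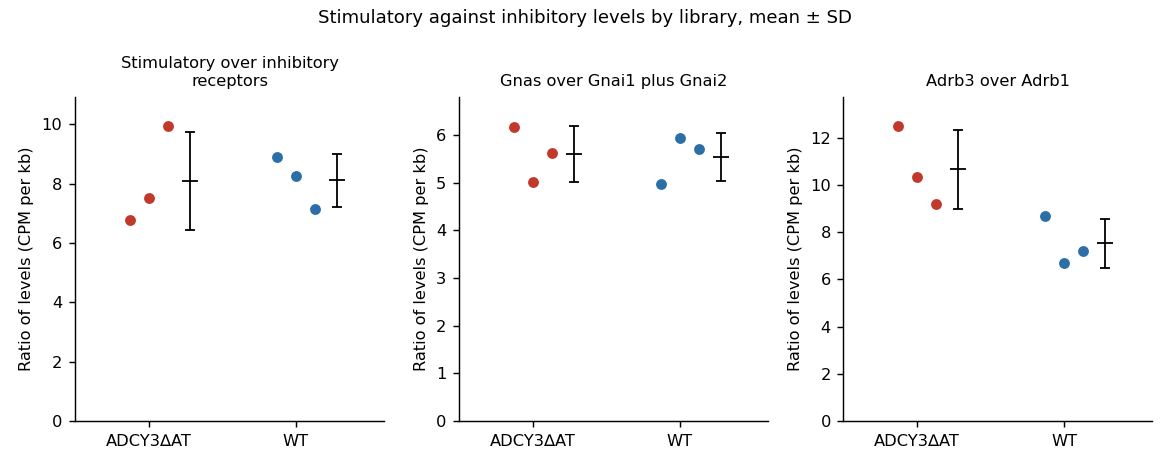
Ratios of levels (CPM per kilobase) within each library, with points for libraries, ADCY3∆AT left of WT, bars for mean ± SD (n = 3 each) and axes starting at 0. The receptor and alpha subunit ratios overlap between genotypes, and the ratio of Adrb3 to Adrb1 lies at 9.18 to 12.5 in ADCY3∆AT and 6.68 to 8.69 in WT.

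Other receptors are known to feed the same enzyme. Of 40 further stimulatory receptors 17 were tested, and 0 were called by edgeR or DESeq2, with 1 at an unadjusted p under 0.05. That was Vipr2, a receptor for vasoactive intestinal peptide, at 1.37 ± 0.47 CPM in ADCY3∆AT and 0.83 ± 0.12 CPM in WT (SD, n = 3 each). The log2 fold change was 0.14 ± 0.08 (SE) for Calcrl, a receptor for calcitonin gene-related peptide and adrenomedullin, 0.26 ± 0.20 for the prostaglandin receptor Ptger2 and 0.04 ± 0.13 for the parathyroid hormone receptor Pth1r, the most abundant of the list. Over the 17 tested, the median was 0.04.

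Among 37 further inhibitory receptors 19 were tested, with a median log2 fold change of 0.24. None was called by edgeR, with 2 higher and 1 lower at an unadjusted p under 0.05, against 5.23% and 5.78% of all genes tested. DESeq2 called 1, where it called 1.2% of all genes it tested, 0.462% higher and 0.737% lower. That was Aplnr, the apelin receptor, known from endothelium. It had 29.6, 35.0 and 34.5 CPM in ADCY3∆AT, against 25.4, 23.4 and 21.7 CPM in WT, with a log2 fold change of 0.49 ± 0.08 (SE, edgeR adjusted p = 0.150) and a DESeq2 adjusted p of 0.000596. S1pr1 had 102 ± 11.4 CPM in ADCY3∆AT and 83.8 ± 3.96 CPM in WT (SD, n = 3 each), and its log2 fold change was 0.29 ± 0.08 (SE, edgeR adjusted p = 0.303). The endothelial markers Pecam1, Cdh5 and others of that list of 8 had a median log2 fold change of 0.15 in the same libraries. Of the 8, 5 lay higher in ADCY3∆AT and 0 lower without overlap, against 7.68% and 8.83% of all genes tested. DESeq2 called 1 of them higher. The part of these markers in the values of Aplnr and S1pr1 was not tested. The cannabinoid receptor Cnr1 lay the other way, with 8.76 ± 2.47 CPM in ADCY3∆AT and 13.1 ± 2.94 CPM in WT (SD, n = 3 each), and its groups overlapped.

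Noradrenaline also reaches alpha-1 receptors, which signal through calcium. Adra1a had 92.4 ± 14.3 CPM in ADCY3∆AT and 90.2 ± 0.92 CPM in WT (SD, n = 3 each). Adra1d had a log2 fold change of -0.52 ± 0.22 (SE, edgeR adjusted p = 0.445) with overlapping groups. It was -0.29 when WT replicate 2 was left out and -0.74 when WT replicate 1 was. Adra1b did not pass the filter. Neither of the 2 tested was called by edgeR or DESeq2. Adra1d was the 1 at an unadjusted p under 0.05, against 11.0% of all genes tested.

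**Figure D4:**
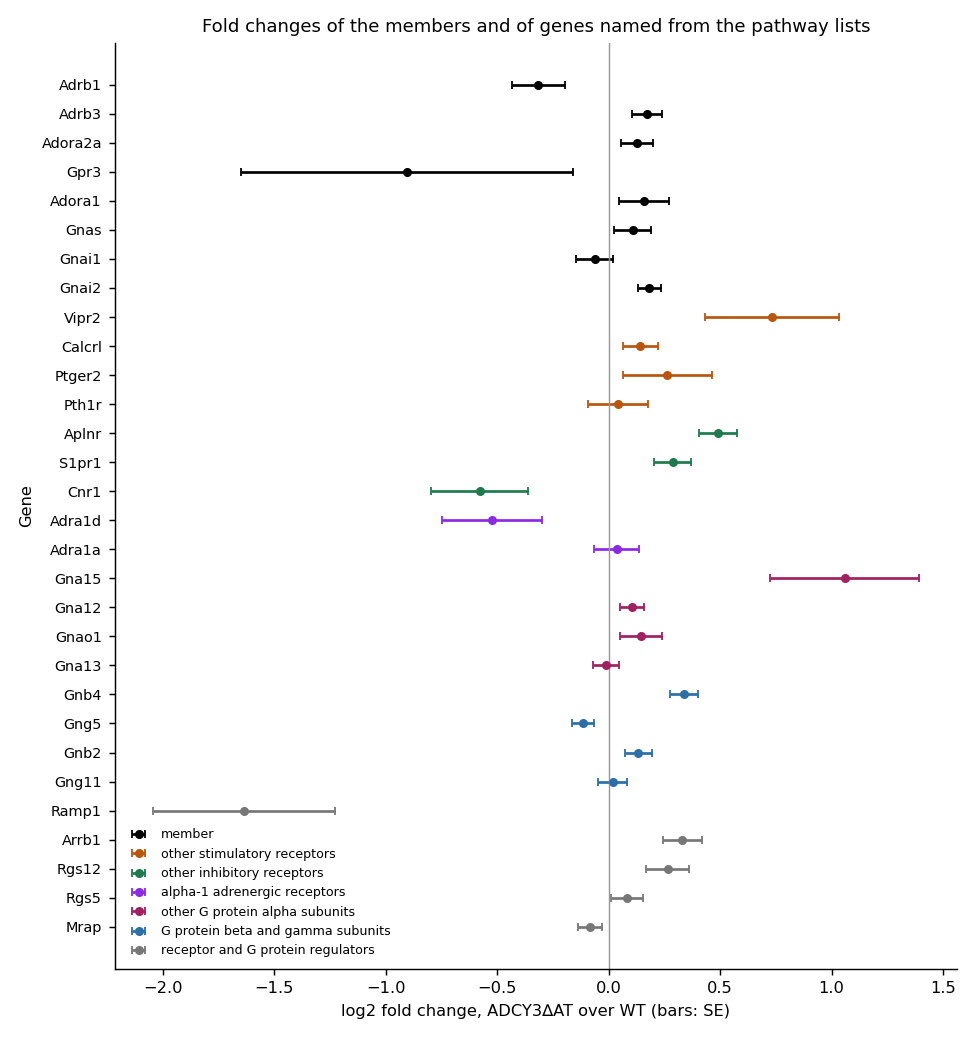
Log2 fold changes (ADCY3∆AT over WT, bars for SE) of the 8 tested members and of 22 genes named from the pathway lists. Among the members Gpr3 has the widest error. Aplnr, Gnb4, Arrb1 and S1pr1 are among the listed genes that lie higher with narrow errors.

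Further G protein subunits and the proteins that act on receptors were also examined. Of 11 tested alpha subunits outside the members, 0 were called by edgeR or DESeq2, with a median log2 fold change of 0.01. At an unadjusted p under 0.05, which 11.0% of all genes tested had, there was 1. That was Gna15, a blood cell subunit of the Gq class, at 0.42 ± 0.07 CPM in ADCY3∆AT and 0.20 ± 0.03 CPM in WT (SD, n = 3 each). Its estimated counts were low, at 18, 18 and 23 in ADCY3∆AT, against 13, 8 and 8 in WT. The 8 macrophage markers had a median log2 fold change of 0.22, with 7 positive and 1 negative. The 5 lymphocyte markers tested were all positive, with a median of 0.41. The part of these markers in the Gna15 values was not tested. The abundant alpha subunits Gna12 and Gna13 had log2 fold changes of 0.10 ± 0.05 and -0.01 ± 0.06 (SE). Gnao1, an inhibitory subunit best known from neurons, had 41.6 ± 3.64 CPM in ADCY3∆AT and 37.7 ± 4.33 CPM in WT (SD, n = 3 each).

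Of 11 tested beta and gamma subunits none was called by edgeR, and DESeq2 called 1 higher, against 0.462% of all genes it tested. At an unadjusted p under 0.05 were 1 higher and 1 lower, against 5.23% and 5.78% of all genes tested. The groups did not overlap for 1 higher and 1 lower, against 7.68% and 8.83%. Gnb4, a beta subunit, had 20.99, 22.2 and 22.7 CPM in ADCY3∆AT, against 18.1, 17.5 and 16.5 CPM in WT. Its groups did not overlap, and the log2 fold change was 0.34 ± 0.06 (SE, edgeR adjusted p = 0.158, DESeq2 adjusted p = 0.0312). Gng5 lay lower at 61.7 ± 1.49 CPM in ADCY3∆AT and 66.8 ± 1.98 CPM in WT (SD, n = 3 each). The log2 fold change was 0.13 ± 0.06 for Gnb2 and 0.02 ± 0.06 for Gng11 (SE).

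Of 28 tested regulators, edgeR and DESeq2 called 0, with a median log2 fold change of 0.10. At an unadjusted p under 0.05 were 3 higher and 1 lower, against 5.23% and 5.78% of all genes tested. Without overlap 2 lay higher and 2 lower, against 7.68% and 8.83%. Arrb1, an arrestin that uncouples activated beta receptors, had 49.7, 45.8 and 38.8 CPM in ADCY3∆AT, against 36.9, 34.0 and 35.9 CPM in WT, without overlap, and a log2 fold change of 0.33 ± 0.09 (SE, edgeR adjusted p = 0.252). Ramp1, a partner of Calcrl, had 0.25 ± 0.10 CPM in ADCY3∆AT and 0.79 ± 0.30 CPM in WT (SD, n = 3 each), without overlap (edgeR adjusted p = 0.232). The estimated counts of Ramp1 were low, at 9, 18 and 9 in ADCY3∆AT, against 43, 22 and 50 in WT. Rgs12, which speeds the switching off of inhibitory alpha subunits, had a log2 fold change of 0.26 ± 0.10 (SE, edgeR adjusted p = 0.376). The most abundant of the list, Rgs5 of pericytes and Mrap, a melanocortin receptor partner of fat cells, had 0.08 ± 0.07 and -0.08 ± 0.05 (SE).

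The order of the libraries differed between members. For each tested member the gene with the most similar log2 CPM over the 6 libraries was sought among 11108 protein-coding genes, as a description with no test, since 6 libraries leave many genes alike by selection. For Adrb3 it was Ptprg (Pearson correlation 0.987), for Adrb1 Inpp1 (0.996), for Adora1 Gpd1l (0.998) and for Adora2a Brwd1 (0.990). For Gnai2 it was Rictor (0.995), for Gnai1 Rrp15 (0.993), for Gnas Trappc2 (0.991) and for Gpr3 Irf7 (0.992). The number of genes above 0.95 ranged from 13 for Gnai1 to 98 for Adrb1.

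**Figure D5:**
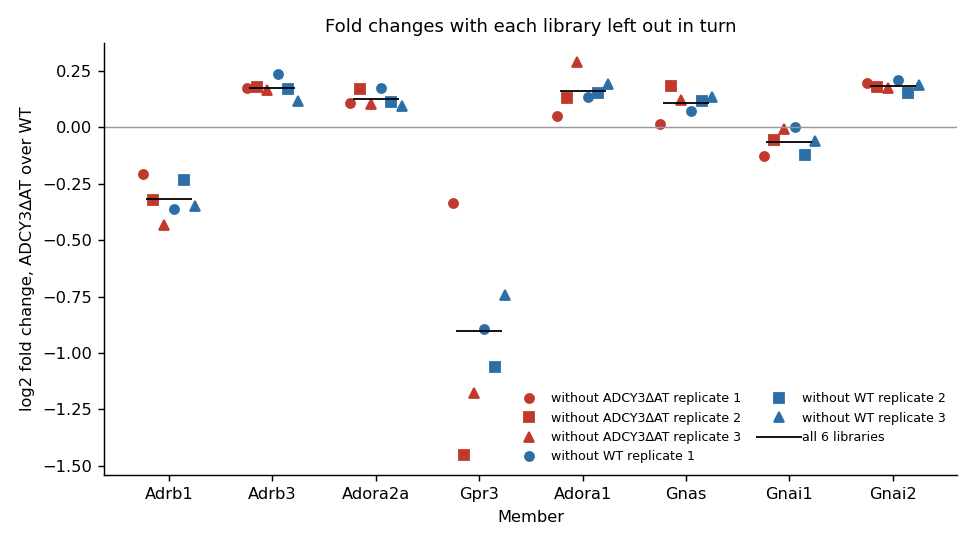
Log2 fold changes (ADCY3∆AT over WT) of the 8 tested members with each of the 6 libraries left out in turn; dashes mark the fit to all 6. Adrb3 (0.11 to 0.24) and Gnai2 (0.15 to 0.21) stay above 0 and Adrb1 (-0.43 to -0.21) below it, while Gnai1 and Gnas come close to 0 without single libraries.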

How the data were processed

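The authors deposited 1 table of estimated counts per Ensembl gene, not normalised, in which 31.6% of values are not whole. Per the submitters' processing notes, the tools were Salmon, StringTie and edgeR and the build was GRCm38; versions, roles and settings are not recorded there. Of 54385 rows 54131 matched a symbol in GENCODE M21 (GRCm38); the others held 0.0271% of counts (median).

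Estimated counts were rounded, filtered with filterByExpr and scaled with TMM. Genotype was tested by quasi-likelihood in edgeR 4.0.16 (R 4.3.3), with no other term, over 18114 genes, with Benjamini-Hochberg adjustment and a threshold of 0.05. Standard errors are those implied by the F statistic, and log2 CPM used a prior count of 2. Alternatives used DESeq2 1.42.0, limma 3.58.1, other factors and filters, left-out libraries and a replicate block. Levels divide CPM by the union of annotated exons. The test was checked on simulated counts, with a pass condition set only for changes larger than those of the tested members.

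The members and lists were chosen with earlier results of these data known. Genes named from a list are the 3 with the lowest p and the 2 with the highest level per kilobase. All members, Adcy3 and, for each tested member, the protein-coding gene most correlated with it (mean log2 CPM of at least 1) are also named. Ptger3, Gnai3, Ucp1, Dbh and the genes overlapping members were added after their values were seen.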

Additional observations from a re-analysis of the deposited data

How the results depend on the processing

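No member was called under any alternative run: RLE factors, library totals alone, DESeq2, limma voom, robust estimation, no low-count filter, at least 1 CPM in 3 libraries, an adjusted p of 0.1, each library left out, or the replicate block. The count of all genes called, 1 with edgeR, was 231 with DESeq2, 214 with no low-count filter, 2 with robust estimation, 2 with limma voom and from 1 to 66 with a library left out, the highest without ADCY3∆AT replicate 3; the cause was not tested. Same-numbered libraries deviated from their group means with correlations of -0.0857, -0.128 and -0.0864. These values gave no sign that the numbers pair the libraries but cannot exclude it. The replicate block gave 3 calls. Each tested member kept its sign in every alternative in which it was fitted. Of 22 other named genes 4 changed sign, all near 0. Gna13 was 0.0031 with library totals alone and from -0.0536 to 0.0157 with a library left out, and a library left out gave Adra1a from -0.0949 to 0.125, Gng11 from -0.0338 to 0.064 and Pth1r from -0.0699 to 0.195. The receptor balance ranged from -0.18 to 0.097 and the alpha subunit balance from -0.061 to 0.094 with a library left out, within 1 SD of the full value. Adrenergic receptors alone gave no balance, as Adra2a was 0 in ADCY3∆AT replicate 2. Depth limits Gpr3 and Adra2a.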
